A study of Mus musculus with 4 samples.

Results

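Zscan4c, Zscan4d, Zscan4f, Zfp352, Tcstv1, Tcstv3, Tmem92 and Usp17lc, 8 of the 33565 genes listed in each matrix, were followed by gene symbol through 3 mouse cell lines. Each line was 1 sample, with no replicate culture labelled, and all were carried through 1 CapSeq library, a split-pool single-cell RNA-seq method that labels polyadenylated RNA of each cell by successive barcodes, here BC1 to BC3. Neuro-2a (N2a) neuroblastoma cells and NIH/3T3 embryonic fibroblasts, both grown in 10% FBS, occupied columns 1 to 4 and 5 to 8 of the BC1 plate. Mouse embryonic stem cells (mESCs) of the E14TG2a line occupied columns 9 to 12 and were kept on gelatin in 15% FBS with leukemia inhibitory factor (LIF), the GSK3 inhibitor CHIR99021 (3 µM) and the MEK inhibitor PD0325901 (1 µM). A 4th matrix held the same reads without the split by BC1. Barcodes with at least 1000 UMIs, of which at most 20% were mitochondrial, were taken as cells, which left 2323 N2a cells, 2037 NIH/3T3 cells and 2137 mESCs with median totals of 6185, 4863 and 4803 UMIs. No cell barcode was shared between the lines (0 barcodes), but the split by BC1 fixes this in advance and it says nothing on how cleanly the lines were separated. Doublets were not called. The mESCs were set apart by their markers. The 11 pluripotency genes looked at had 80188 UMIs in mESCs, 634 in N2a cells and 1718 in NIH/3T3 cells. With 1 library per line no test was possible, so levels are given as CPM, the UMIs of a gene scaled to the same total in each group of cells, with exact Poisson intervals and shares of cells with exact binomial intervals, both at 95%. These intervals cover counting error only.

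The 8 genes belong to the set that the mouse embryo transcribes when its genome is activated at the 2-cell stage. In mESC cultures they are known to be silent in most cells and to switch on together, for a short time, in rare cells called 2-cell-like. Zscan4 genes encode zinc finger proteins with a SCAN domain that act in telomere maintenance, the factor Dux is a known activator of the program, and repressive chromatin is known to hold it silent.

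The Zscan4 genes are shown by sequence because their copies are so alike that the assignment of a read to 1 of them is uncertain. All 3 lie in a cluster on chromosome 7 (GRCm39), with Zscan4c at chr7:10739648-10744474 on the plus strand, Zscan4d at chr7:10895301-10900111 on the minus strand and Zscan4f at chr7:11131842-11136668 on the plus strand. Each has 4 exons and a coding sequence of 1518 bases. Zscan4c and Zscan4f differed at 6 of these bases (99.6% identical), and Zscan4d differed from each of them at 35 (97.7% identical). The stretch from coding base 691 to 780 is printed here because it held 7 of the 38 positions at which any of the copies differed, marked by capitals.
Zscan4c: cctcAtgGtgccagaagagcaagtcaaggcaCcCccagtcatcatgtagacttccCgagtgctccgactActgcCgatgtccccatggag
Zscan4d: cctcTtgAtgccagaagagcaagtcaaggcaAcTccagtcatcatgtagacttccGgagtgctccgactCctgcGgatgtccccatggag
Zscan4f: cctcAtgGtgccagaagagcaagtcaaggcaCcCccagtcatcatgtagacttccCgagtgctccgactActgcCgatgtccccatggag
In this stretch Zscan4c and Zscan4f could not be told apart. Of all 89-base words within exons of the transcript, the length of the cDNA read, the share that occurred at 1 place in the genome was 26.2% for Zscan4c, 67.3% for Zscan4d and only 4.65% for Zscan4f. In the last 500 bases of the transcript these shares were 60.7%, 74.5% and 0%. Over the whole transcript the shares of the other members ran from 66.8% for Usp17lc, close to that of Zscan4d, to 98.4% for Zfp352. Whether STARsolo dropped reads that fit several genes is not stated, so the split of UMIs among the Zscan4 copies is uncertain throughout.

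The 250 bases upstream of the transcript start are given for Zscan4c and Zfp352, as members at separate loci. Capitals mark 3 motifs, read on either strand. The first is TGATT and ATCA separated by 2 bases, a relaxed form of an element bound by Dux (TGATT and AATCA separated by 1 base), so that every match to the strict form is also a match to the relaxed form. TATAAA is the TATA box, and TAATCC is bound by homeodomain factors of the bicoid type. The windows are chr7:10739422-10739671 for Zscan4c, whose last bases overlap the start of another transcript, and chr4:90106807-90107056 for Zfp352, both on the plus strand.
Zscan4c: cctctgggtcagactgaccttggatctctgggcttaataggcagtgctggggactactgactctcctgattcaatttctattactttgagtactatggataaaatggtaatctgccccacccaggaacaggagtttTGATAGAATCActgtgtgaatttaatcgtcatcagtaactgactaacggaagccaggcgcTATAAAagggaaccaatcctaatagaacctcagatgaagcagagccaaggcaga
Zfp352: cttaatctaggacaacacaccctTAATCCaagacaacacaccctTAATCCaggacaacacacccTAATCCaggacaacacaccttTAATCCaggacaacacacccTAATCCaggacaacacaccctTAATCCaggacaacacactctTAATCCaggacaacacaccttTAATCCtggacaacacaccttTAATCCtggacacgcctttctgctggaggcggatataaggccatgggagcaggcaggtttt
Motifs are given for the windows of the 3 Zscan4 genes, Zfp352 and Usp17lc. The relaxed element was in the windows of Zscan4c, Zscan4d and Zscan4f, on the minus strand, and in 49 of 21770 promoter windows of the genome (0.225%). The strict form was in none of these 5 windows (0 matches) and in 8 of the 21770. TATAAA was in the windows of the 3 Zscan4 genes and Usp17lc and in 11.9% of all windows. TAATCC occurred 9 times in a repeat in the Zfp352 window, and was in 7.00% of all windows. Of the other motifs searched, CCCACC was in the windows of the 3 Zscan4 genes (29.8% of all windows) and the E-box CACGTG in none of the 5 (6.26%). Thus no motif searched was in all 5 windows. The Zscan4c and Zscan4d windows were 96.4% identical. Tcstv1 (chr13:120354924-120356321, minus strand) and Tcstv3 (chr13:120778414-120779798, plus strand) had coding sequences that were 93.6% identical. Zfp352 lies at chr4:90107057-90113939, Tmem92 at chr11:94668043-94673529, and Usp17lc at chr7:103064279-103069091, far from the Zscan4 cluster on the same chromosome.

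Transcripts of the 8 genes were found in mESCs and were nearly absent from the other lines. Together they had 833 UMIs in mESCs (67.6 CPM, 63.1 to 72.4), 4 UMIs in NIH/3T3 cells (0.342 CPM, 0.0932 to 0.876) and 0 UMIs in N2a cells, where 3 UMIs would have been 0.167 CPM. In NIH/3T3 cells the level was thus 0.506% of that in mESCs (0.138% to 1.30%, from 4 UMIs). For comparison, the pluripotency genes L1td1, Zfp42, Tfcp2l1 and Dppa5a stood in NIH/3T3 cells at 0.0697%, 0.0908%, 0.144% and 0.624% of their mESC levels. The value of the 8 genes lay above 3 of these and below Dppa5a, and where its 4 UMIs came from was not tested. Of the 19248 genes with at least 10 UMIs over the 3 lines, 7.02% had at least 90% of their summed CPM in mESCs. Nothing is read from the members against this share, since most of them reached 10 UMIs through mESCs alone and Tcstv1 had 1 UMI in all.

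**Figure D1:**
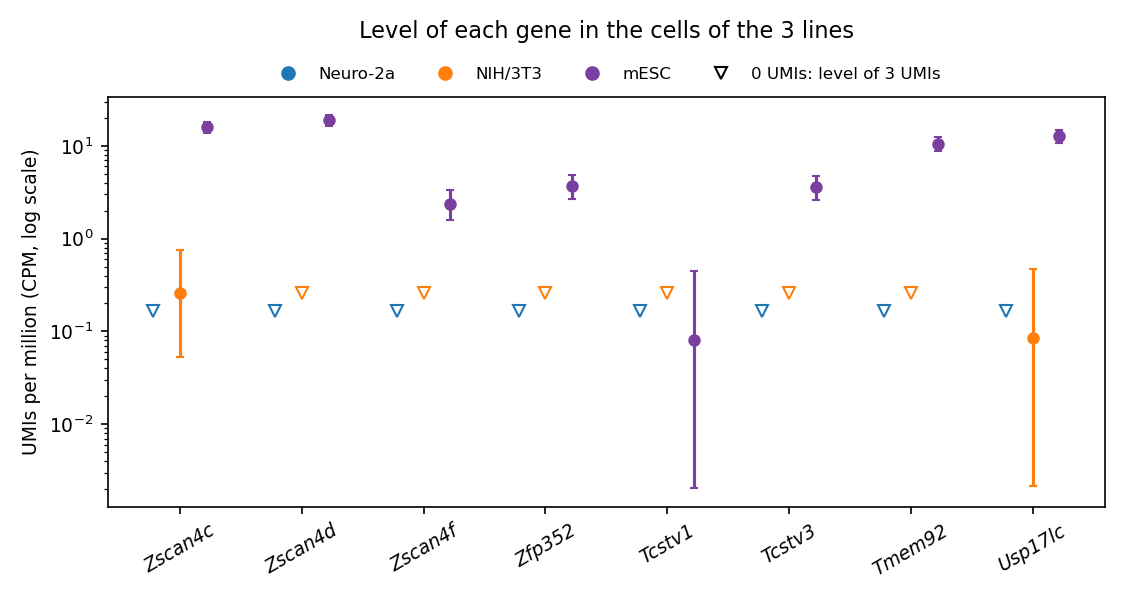
Level of each gene in the cells of N2a, NIH/3T3 and mESC in CPM (log axis), with points for the level and bars for the 95% exact Poisson interval, and open triangles for the level of 3 UMIs where 0 were counted. In mESCs 7 genes lie between 2.35 and 18.8 CPM, above every value of the other lines, and Tcstv1 lies at 0.0812 CPM.

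Zscan4d and Zscan4c were the members with most UMIs. Zscan4d had 232 UMIs in 82 mESCs (18.8 CPM, 16.5 to 21.4) and 0 UMIs in both other lines. Zscan4c had 196 UMIs in 78 mESCs (15.9 CPM, 13.8 to 18.3), 3 UMIs in NIH/3T3 cells and 0 in N2a cells. Zscan4f stood well below both, with 29 UMIs in 22 mESCs (2.35 CPM, 1.58 to 3.38) and 0 elsewhere. This low level goes with the low share of Zscan4f words found at 1 place in the genome, and the part of read assignment in it was not tested.

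Usp17lc, which encodes a deubiquitinating enzyme, had 157 UMIs in mESCs, 1 in NIH/3T3 cells and 0 in N2a cells. Its mESC level was 12.7 CPM (10.8 to 14.9), from only 49 cells. Its UMIs were thus more concentrated than those of Tmem92, a gene for a transmembrane protein, which had 129 UMIs in 65 mESCs (10.5 CPM, 8.74 to 12.4) and 0 in the other lines. The median cell with Usp17lc held 3 of its UMIs, against 1 for Tmem92 and 2 each for Zscan4c and Zscan4d.

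Zfp352, a zinc finger gene, had 45 UMIs in 21 mESCs (3.65 CPM, 2.66 to 4.89), and Tcstv3, a small gene named for its variable expression at the 2-cell stage, had 44 UMIs in 24 (3.57 CPM, 2.59 to 4.79). Neither was detected in N2a or NIH/3T3 cells (0 UMIs). Tcstv1, its paralog, had 1 UMI in 1 mESC (0.0812 CPM, 0.00205 to 0.452), although 91.0% of its words occur at 1 place in the genome. The Tcstv3 interval lay above that of Tcstv1, so the 2 paralogs were not at like levels in these cells. The level of Zfp352 depended on how cells were called. It was 1.68 CPM in cells with at least 2000 UMIs and 1.83 CPM under STARsolo's calling rule, where Zscan4f stood at 2.35 and 2.33 CPM, so that the order of these 2 genes turned.

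Per kilobase of transcript, the order of the levels was Zscan4d (8.29 CPM per kb), Zscan4c (6.99), Usp17lc (5.30), Tmem92 (4.79), Tcstv3 (4.14), Zfp352 (1.60), Zscan4f (1.05) and Tcstv1 (0.0927). The counting intervals of neighbours overlapped from Zscan4d down to Tcstv3. Tcstv3 (3.01 to 5.55) then lay above Zfp352 (1.17 to 2.15), Zfp352 overlapped Zscan4f (0.700 to 1.50), and Zscan4f lay above Tcstv1 (0.00235 to 0.517). Division by length takes reads to be spread along the transcript, which was not tested.

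Within the mESC culture the genes were confined to few cells. Of the 2137 mESCs, 148 had at least 1 UMI of the 8 genes (6.93%, 5.89% to 8.09%), 78 had at least 3 (3.65%, 2.90% to 4.53%), and 82 had at least 2 of the genes (3.84%, 3.06% to 4.74%). No NIH/3T3 cell and no N2a cell had 3 UMIs (0 of 2037, which allows up to 0.147%, and 0 of 2323, up to 0.129%), and 4 NIH/3T3 cells had 1 UMI each (0.196%). When each mESC was thinned to 1000 UMIs, the shares were 3.79% (81 cells) for at least 1 UMI, 1.54% (33 cells) for at least 3 and 1.87% (40 cells) for at least 2 genes. The shares thus depend on depth.

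The 78 cells with at least 3 UMIs, the 2-cell-like cells by this rule, held 742 of the 833 UMIs (89.1%) but only 3.04% of all mESC UMIs. These cells were chosen by the same UMIs, and the other 70 positive cells could hold only 1 or 2 each. The 89.1% is therefore a description of the rule's outcome. Over all 148 cells with at least 1 UMI, the number of genes detected reached 6 of 8, with 66 cells for 1 gene, 21 for 2, 26 for 3, 21 for 4, 12 for 5 and 2 for 6. The richest cell held 37 UMIs of the 8 genes among 7076 in all, made up of 9 of Zscan4c, 10 of Zscan4d, 2 of Zscan4f, 9 of Tmem92 and 7 of Usp17lc. In the cell with the largest share among the 5 richest, the genes made up 1.56% of 1154 UMIs, with 8 UMIs of Zfp352 and 5 of Usp17lc. High counts were therefore not the work of the same gene in every cell.

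**Figure D2:**
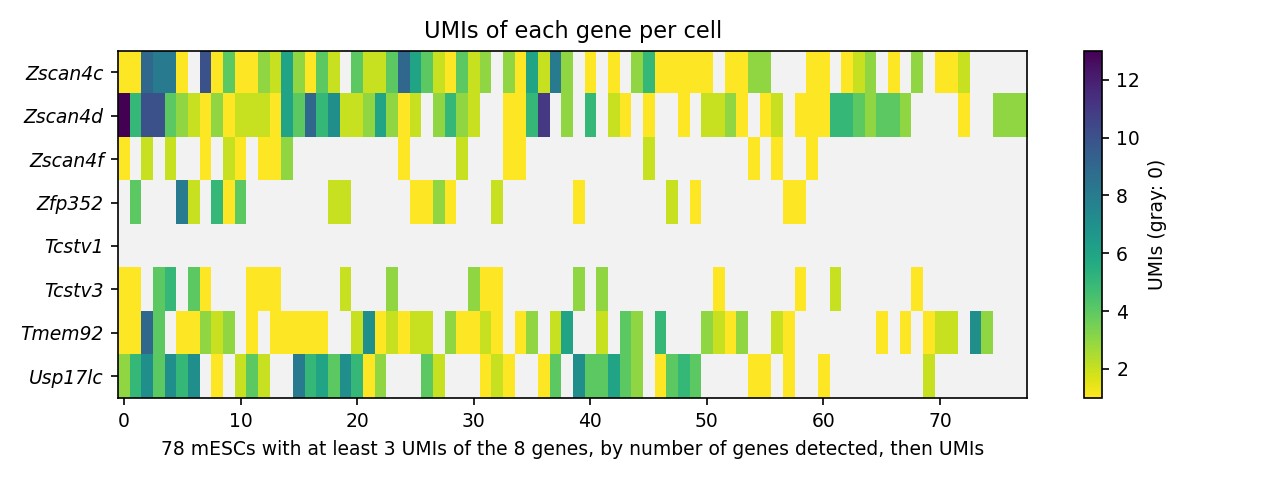
UMIs of each gene (rows) in each of the 78 mESCs with at least 3 UMIs of the 8 genes (columns, ordered by the number of genes detected and then by UMIs), with gray for 0 UMIs. Zscan4c and Zscan4d fill most columns, Zfp352 and Tcstv3 appear in scattered cells, and Tcstv1 has 0 UMIs in all of them.

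Detection of 1 member went with detection of the others. Of the 49 cells with Usp17lc, 45 also held another member (91.8%, 80.4% to 97.7%), and so did 21 of the 24 with Tcstv3 (87.5%), 18 of the 21 with Zfp352 (85.7%), 65 of the 78 with Zscan4c (83.3%), 18 of the 22 with Zscan4f (81.8%), 61 of the 82 with Zscan4d (74.4%) and 48 of the 65 with Tmem92 (73.8%). Seen from the other side, Zscan4c was in 48.1% of the 135 cells that held another member and in 0.649% of the 2002 cells that did not. For Usp17lc these shares were 31.25% and 0.201%, and for Zfp352 12.4% and 0.151%. The single UMI of Tcstv1 was the exception, in a cell with none of the other 7 (0 of 1).

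The pairs differed in how often they met. Of the cells with Zscan4c, 65.4% (51 of 78) also held Zscan4d, against 1.51% of the cells without Zscan4c. Of those with Zfp352, 66.7% (14 of 21, 43.0% to 85.4%) held Usp17lc, whereas 9.52% (2 of 21, 1.17% to 30.4%) held Zscan4f. Among cells without Zfp352 these shares were 1.65% and 0.945%. Usp17lc was detected in 49 cells and Zscan4f in only 22, and the part of detection and read assignment in this contrast was not tested. Pairs of Zscan4 copies share reads and so cannot show that copies were transcribed together. Pairs between loci are free of this. Any Zscan4 gene was found in 114 mESCs, of which 61 held 1, 38 held 2 and 15 held 3 of the copies. Of the cells with Usp17lc, 81.6% (40 of 49) held a Zscan4 gene, against 3.54% of cells without Usp17lc. The like shares were 71.4% against 4.68% for Zfp352, 68.0% against 4.59% for Tcstv1 or Tcstv3, and 66.2% against 3.43% for Tmem92.

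**Figure D3:**
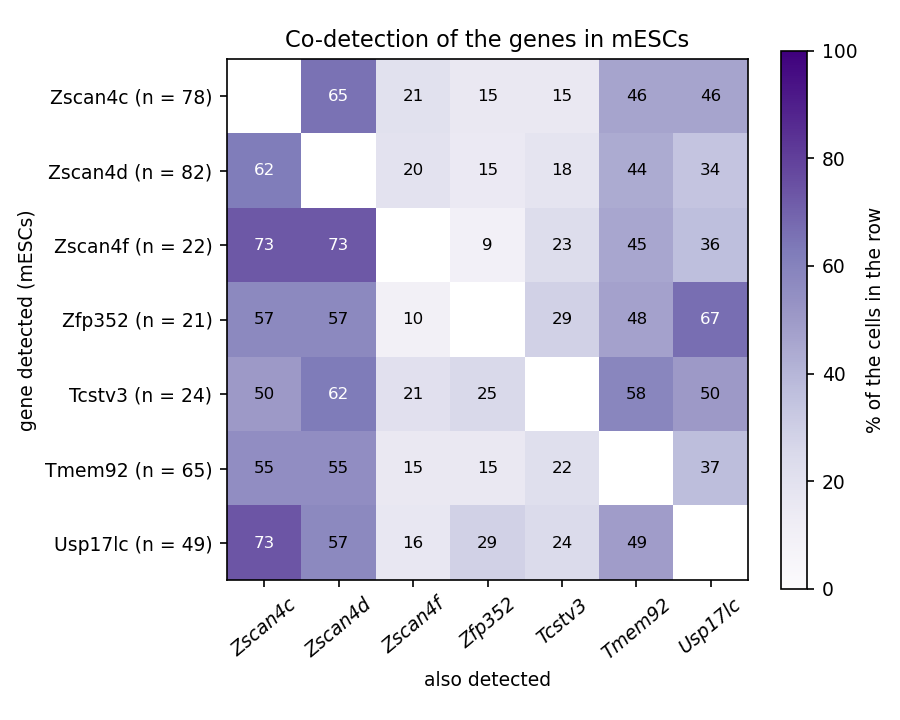
Share of the mESCs with the gene in the row (n cells) that also held the gene in the column, in percent. Tcstv1, with 1 cell, is left out. Shares run from 9.09% for Zfp352 among Zscan4f cells to 73.5% for Zscan4c among Usp17lc cells.

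Cells of lower depth still showed several genes together. The median total was 4800 UMIs in cells with 0 of the genes, 5755 in cells with 1 gene, 4164 with 3, 2836 with 4 and 3406 with 5. The 78 cells with at least 3 UMIs had a median of 3881 UMIs and, when thinned, of 754 detected genes against 811 in cells with 0. Mitochondrial UMIs made up a median of 2.94% against 2.00%, and ribosomal protein UMIs 7.60% against 8.12%. Depth, gene number and mitochondrial share thus moved with the 8 genes, and their part in the values was not tested. After thinning to 1000 UMIs, 22 of 28 cells with Usp17lc (78.6%), 12 of 12 with Zfp352 and 25 of 35 with Zscan4c (71.4%) still held another member.

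The positive cells came from the whole mESC part of the plate. The mESCs carried 32 BC1 sequences, with 50 to 102 cells each, and at least 1 positive cell was found for each of the 32. The share of cells with at least 1 UMI ranged from 1.45% to 15.4% with a median of 6.39%, and that of cells with at least 3 UMIs from 0% to 11.5% with a median of 3.13%. Zscan4d was found in cells of 30 of the 32 sequences, Zscan4c in 29, Tmem92 in 27, Usp17lc in 26, Zscan4f in 19, Tcstv3 in 16 and Zfp352 in 15. These are wells of 1 sample and not replicates.

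**Figure D4:**
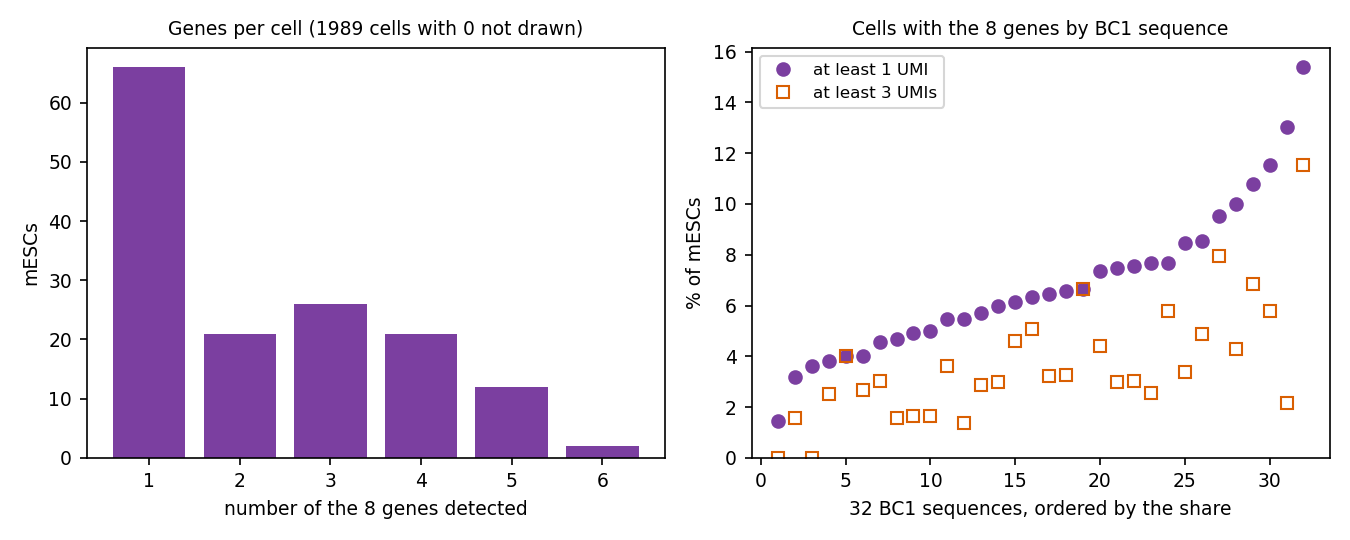
Left, number of mESCs by how many of the 8 genes were detected, from 66 cells with 1 gene to 2 cells with 6. Right, share of mESCs with at least 1 UMI (circles) and at least 3 UMIs (squares) of the 8 genes for each of the 32 BC1 sequences, ordered by the first share, which runs from 1.45% to 15.4%.

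For the rest of the transcriptome, the 78 cells with at least 3 UMIs were compared with the 1989 cells with 0. Of the 13400 other genes with at least 20 UMIs in mESCs, 4.60% were at least 4-fold higher in CPM in the 78 cells, 1.40% were at least 4-fold lower, and the median ratio was 0.860. In that median a gene with 0 UMIs in the 78 cells had a ratio of 0. Genes near the minimum of 20 UMIs counted in it like all others, so it is only a rough mark for genes with many UMIs. The 78 cells held only 3.04% of UMIs, and 0 UMIs there were taken as 3 in the call of lower genes. A gene thus needed many more UMIs to be called lower than to be called higher, and the 2 shares cannot be compared. For a member, the cells were chosen by the other 7 genes, since its own counts would fix the result. The ratios of the 7 members with at least 20 UMIs are a description, as several members reached that minimum mainly through the 78 cells, and the cells of a Zscan4 gene were chosen in part by copies that share its reads. The same minimum favours high ratios in the other lists below. Ratios ran from 113 for Tmem92 (253.6 against 2.24 CPM) to 1103 for Usp17lc (383.2 against 0.347 CPM, with an interval of the ratio from 421 to 4108). Zscan4c stood at 467.6 against 1.64 CPM and Zfp352 at 107.7 against 0.260 CPM, the latter from 3 UMIs in the lower group.

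The other genes of the Zscan4 cluster followed. Of 6 listed, 5 were in the matrices, with 424 UMIs in mESCs together. All 5 were at least 4-fold higher, against 4.60% of the 13400 genes, with a median ratio of 329. Several reached 20 UMIs only through the 78 cells, so the count is a description. Zscan4e had 160 against 0.696 CPM, Zscan4-ps1 200.5 against 0.609, and Zscan4-ps2 256.7 against 0.956. Zscan4b had 52 of its 54 UMIs and Zscan4-ps3 72 of its 78 in the 78 cells. Reads of Zscan4c, Zscan4d and Zscan4f may be among these, as only 8.96% of the words of Zscan4-ps2 and 13.7% of those of Zscan4b occur at 1 place in the genome.

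Other genes known from the 2-cell stage were higher as well, with 12 of the 13 that had enough UMIs at least 4-fold higher and a median ratio of 277, taking the 2 genes with 0 UMIs in the lower group at the limit of 3 UMIs over that group. Gm21761 and Gm20767, relatives of Tcstv1 that are named Tcstv2b and Tcstv2c in GENCODE M39, had more UMIs in mESCs (465 and 215) than Tcstv3. Gm21761 had 1144 against 1.13 CPM and Gm20767 had 187 of its UMIs in the 78 cells. Only 46.3% of the words of Gm21761 and 46.6% of those of Gm20767 occur at 1 place in the genome, against 89.7% for Tcstv3. The assignment of reads to these 2 genes is thus uncertain too. Lgals4, for a galectin, was 10.1-fold higher (136 against 13.6 CPM). Rpl39l, for a ribosomal protein variant, was the exception, with 107 against 133.5 CPM (ratio 0.801, 0.570 to 1.10) and 5423 UMIs in NIH/3T3 cells, where the 8 genes together had 4. Of 36 symbols on this list, 26 were in the matrices, and 6 of these had 0 UMIs in mESCs.

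Of the 5 known activators of the program with enough UMIs, 1 passed 4-fold, against 4.60% of the 13400 genes. With 5 genes, nothing is read from this count. The gene that passed was Nelfa, a subunit of the negative elongation factor, with 1214 CPM (454 UMIs) against 56.3 CPM, a ratio of 21.5 (19.1 to 24.3). Dppa2, a chromatin protein that acts on Dux, had 1096 against 322.6 CPM (ratio 3.40, 3.06 to 3.76). Dppa4, its partner, had 50.8 (19 UMIs) against 86.6 CPM (ratio 0.587, 0.352 to 0.921), although the 2 proteins act as a pair. The interval of Dppa4 includes the median ratio of all genes (0.860). The orphan receptor Nr5a2 (ratio 0.627, 0.485 to 0.799) lay below that median, and the T-box factor Tbx3 (0.832, 0.693 to 0.991) lay near it. The homeobox gene Obox3 had only 12 UMIs, 3 of them in the 78 cells. Duxf3, the copy of Dux in the matrices, is named here after its values were seen, with 6 UMIs in 6 mESCs, 5 of them in the 78 cells, and 0 in the other lines.

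Known repressors did not differ by 4-fold (0 of 13), with ratios from 0.509 to 1.28 and a median of 0.924, against 0.860 over all genes. A count of 0 is near the shares of all genes (4.60% higher, 1.40% lower), so nothing is read from it. Rif1, a regulator of replication timing, had 1305 against 1099 CPM (ratio 1.19). Trim28, a corepressor of retroelements, had 446.5 against 518.7 CPM (0.861), the demethylase gene Kdm1a 294 against 255.5 CPM (1.15), and the deacetylase gene Hdac1 262 against 241 CPM (1.09).

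No pluripotency gene differed by 4-fold (0 of 11), which is also near the shares of all genes (4.60% higher, 1.40% lower). Ratios of the pluripotency genes ran from 0.437 to 0.980 with a median of 0.634, against 0.860 over all genes. Pou5f1 (0.980), Nanog (0.923) and Klf4 (0.910), named here after their values were seen, lay above that median of all genes. In 8 of the 11 the counting interval in the 78 cells lay below that in cells with 0. This count was not made over all genes, so nothing is read from it. L1td1, for an RNA-binding protein, had 313 against 629.6 CPM (ratio 0.497), and the transcription factor gene Tfcp2l1 had 430.5 against 725.8 CPM (0.593). Zfp42, for the zinc finger protein REX1, had 845 against 1333 CPM (0.634), and Dppa5a 1281 against 1841 CPM (0.696). RNA of every gene on the list was still found in the 78 cells.

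**Figure D5:**
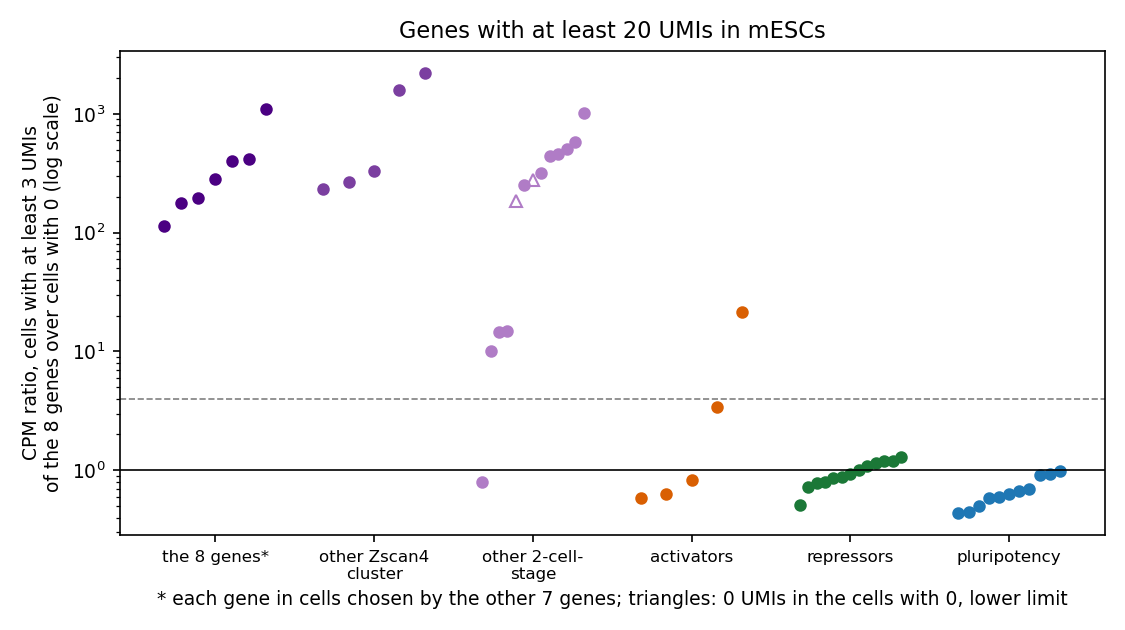
Ratio of CPM in mESCs with at least 3 UMIs of the 8 genes to CPM in mESCs with 0 (log axis), for genes with at least 20 UMIs in each list, with a line at 1 and a dashed line at 4. The 7 members drawn, each in cells chosen by the other 7 genes, the other Zscan4 genes and 12 of the 13 other 2-cell-stage genes lie above 4, of the activators only Nelfa does, and repressors (0.509 to 1.28) and pluripotency genes (0.437 to 0.980) lie near or below 1.

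Markers of other cell types were low in the 78 cells. Summed over each list, they stood at 45.5 CPM against 73.1 CPM in cells with 0 for primitive endoderm, 29.4 against 91.8 CPM for trophoblast, 10.7 (4 UMIs) against 3.83 CPM for fibroblasts and 2.67 (1 UMI) against 2.96 CPM for sympathoadrenal cells. Of 8 primitive endoderm genes, Gata4, Gata6 and Pdgfra had 0 UMIs there, Dab2 had 2, and Lama1 had 34.8 against 64.4 CPM. Sox17, named here after its values were seen, went the other way, with 2 UMIs (5.35 CPM) against 3 UMIs (0.261 CPM). Gata4, Gata6 and Pdgfra had only 24, 15 and 16 UMIs in the cells with 0, so their 0 UMIs in the 78 cells say little. Of 7 trophoblast genes, Eomes had 0 UMIs, Krt18 had 1, Krt8 had 2, and Tfap2c, also a gene of germ cells, had 21.4 against 72.7 CPM. Of the fibroblast genes, Thy1 also went the other way, with 3 UMIs (8.02 CPM) against 10 UMIs (0.869 CPM). So did Col1a1, named here after its values were seen, with 1 UMI (2.67 CPM) against 7 UMIs (0.609 CPM). Col1a2 and Prrx1 had 0. The sympathoadrenal genes Hand2 and Phox2a, with 7258 and 2259 UMIs in N2a cells, also had 0. In the cells with 0 of the 8 genes, Col1a2, Prrx1, Hand2 and Phox2a had only 11, 8, 21 and 13 UMIs. Their 0 UMIs in the 78 cells thus say little as well.

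Several further genes had almost all of their UMIs in the 78 cells, which held 3.04% of all UMIs. Of the 13400 genes, 162 (1.21%) had at least 50% of their UMIs there. The highest shares were in Usp17ld (27 of 27 UMIs), a close relative of Usp17lc, and AF067061 (22 of 22), a gene 52.4 kb from Tcstv3. Next came Gm41654 (51 of 52), Zscan4b (52 of 54), Pramel19 (70 of 73), BC147527 (20 of 21), which lies 8.04 kb from Tcstv3, Speer4cos (118 of 124), Gm12114 (38 of 40), Olfr881 (19 of 20) and Zswim2 (86 of 91). All 10 reached the minimum of 20 UMIs only through the 78 cells, so their shares are descriptions. Of these 10, Usp17ld and Zscan4b are also on the lists above and the other 8 are not. Usp17ld, AF067061, Zscan4b and BC147527 lie beside members. Of the 162, 12 lay within 1 Mb of a member. Of these, 5 were near the Zscan4 genes, 6 near the Tcstv genes and 1 near Usp17lc. The share of all 13400 genes that lie so near a member was not computed, so these counts are descriptions. Across mESCs, Speer4cos had the highest Pearson correlation of these 10 with the number of the 8 genes detected (r = 0.67, n = 2137 cells of 1 library, log-normalised values).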

How the data were processed

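The authors split the reads of 1 CapSeq library by BC1, trimmed the template-switching sequence, and aligned and counted them with STARsolo on GRCm39 (GENCODE M30). The deposited files, 3 matrices split by line and 1 pooled matrix, hold unscaled UMI counts of every gene in every possible barcode. How reads that fit several genes were counted is not given in the sources used here. Totals ranged from 13505027 UMIs (NIH/3T3) to 49185518 (pooled).

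The cell filter of the study's methods was applied (1000 UMIs or more, mitochondrial share no higher than 20%). CPM was computed here from UMIs summed over cells. Intervals are exact Poisson and Clopper-Pearson at 95%, and a count of 0 was taken to allow 3. The interval of a ratio is the Clopper-Pearson interval of the share of UMIs in 1 class, converted by the totals. The named genes are the 8 members, list genes with at least 10 UMIs in mESCs (in lists with more than 6 such genes, the 4 with most UMIs), and the 10 other genes with at least 20 UMIs and the largest share of them in cells with at least 3 UMIs of the members. The members and lists were chosen with earlier results of these data known. Of 108 symbols in the lists, 96 were in the matrices. Positions, transcripts and promoters are from GENCODE M39 and the GRCm39 genome, where 32953 of 33565 gene identifiers were found. Some promoter windows are not reported here. The canonical transcript of a gene gave its length. Alternatives changed the cell filter, the calling rule, the matrix, the depth and the detection limit. The ratio step was tested on simulated data. The work used scipy 1.17.1 and Biopython 1.88 in Python 3.11.15, with pandas 2.3.3, numba 0.67.0, matplotlib 3.10.9 and numpy 2.4.6.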

Additional observations from a re-analysis of the deposited data

Results flagged for a closer look

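Barcodes that were not taken as cells held the 8 genes at a higher level than the cells did. In the mESC matrix, 239 of the 1072 UMIs of these genes (22.3%) lay outside the filtered cells, at 153.9 CPM (135 to 174.7) against 67.6 CPM inside. Barcodes outside the cells had 0 of these UMIs in the N2a matrix and 3 in the NIH/3T3 matrix (1.66 CPM). Of the 780 mESC barcodes with at least 200 but fewer than 1000 UMIs, 18 held at least 3 UMIs of the 8 genes (2.31%, 1.37% to 3.62%), against 0 of 1349 in N2a and 0 of 629 in NIH/3T3. These barcodes had a median of 339 UMIs, and barcodes under 200 UMIs held 133 of the 239 UMIs. The 8 genes were thus also found at shallow barcodes that the filter removed, and the part of the filter in the shares of cells was not tested beyond the limits of 500 and 2000 UMIs.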

How the results depend on the processing

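The level of the 8 genes together in mESCs was 67.6 CPM. It was 55.6 CPM in cells with at least 2000 UMIs, 57.3 CPM in the 1920 cells of STARsolo's calling rule and 76.8 CPM without the 5% of cells with most UMIs. A limit of 500 UMIs, a limit of 10% mitochondrial UMIs and the pooled matrix kept this level, the shares of cells and the co-detection of Zscan4d in Zscan4c cells within their counting intervals. Thinning to 1000 UMIs gave 3.79% of cells with at least 1 UMI, 1.54% with at least 3 and 1.87% with at least 2 genes, and 42.9% of Zscan4c cells with Zscan4d. That last share was 51.2% with at least 2 UMIs of each gene. Of single genes and other pairs, 23 of 56 values left their interval under thinning, 20 of 48 with at least 2 UMIs, 5 of 64 under each of the stricter calls, 2 of 64 without the deepest cells and 0 of 64 under each of the 3 others. Of the 10 genes with the largest shares of UMIs in the positive cells, 0 were among the 10 with the highest Pearson correlation, 5 with a minimum of 50 UMIs and 5 when cells with at least 1 UMI were used. No paired analysis was possible because each line had 1 library. Counts of 3 or fewer limit the ratios.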

Other observations

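Families that were not on any list also stood out, and they are named here after their values were seen. The Eif1ad genes resemble a translation initiation factor gene. All 12 with at least 20 UMIs had at least 50% of them in the 78 mESCs. So did 4 of the 10 Pramel genes, relatives of the tumor antigen gene PRAME, against 1.21% of all 13400 genes. Several of these genes, such as Eif1ad10 with 19 of its 22 UMIs there, reached 20 UMIs only through the 78 cells. The counts are therefore descriptions. By Pearson correlation over mESCs with the number of the 8 genes detected, Eif1ad8 (r = 0.83) and Gm21761 (r = 0.83) came highest, above Gm20767 (r = 0.81) and Eif1ad15 (r = 0.81).

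Among genes with at least 200 CPM in mESCs without the 8 genes, the lowest ratio was in Mapk1ip1l (64.2 against 228.8 CPM, ratio 0.281), followed by Etl4 (227 against 708 CPM, 0.321) and the zinc finger gene Trps1 (206 against 618 CPM, 0.333). Tcf7l1, a repressor of Wnt targets, stood at 230 against 619.8 CPM (0.371). These were also chosen by their values.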
